A study of Oryza sativa Indica Group with 4 samples.

Results

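The genes described here are the rice SPX, PHO1 and PHR genes, which sense phosphate, move it out of cells and switch on the genes of phosphate starvation. They were taken by name: every probe set whose single annotated gene carried, as symbol or synonym, SPX1 to SPX6, SPX-MFS1 to SPX-MFS3, PHO1-1 to PHO1-3, PHO2, PHR1, PHR2 or PTF1. Altogether 11 genes of the RefSeq gene table bore one of these names, and 9 of them had 14 probe sets among the 57381 of the array: SPX1, SPX2, SPX3, SPX4, SPX5, PHO1-2, PHO1-3, PHR1 and PHR2. SPX6 and PHO1-1 had no probe set assigned to them in the annotation used here, and no gene of the table carried the SPX-MFS, PHO2 or PTF1 names, so these were not analysed here.

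RNA came from seedlings of the Basmati 370 cultivar (B370), sampled 15 days after germination and raised under growth conditions that the labels call optimal. The mutant group was the T-DNA insertional mutant named OsAPC6, in the Basmati 370 background, with 2 arrays. The wild-type group was Basmati 370 itself, also with 2 arrays. The name OsAPC6 stands for a part of the anaphase-promoting complex, a ubiquitin ligase needed for mitosis, and its own transcript was not analysed here. The labels do not give the zygosity of the insertion, how many insertion lines or plants went into a sample, or which organs were taken, and both groups grew without any stated phosphate treatment. The series calls its replicates biological, and the small number of arrays limits how precise any value can be.

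In plants, SPX domains bind inositol pyrophosphates, whose level follows the phosphate supply of the cell. When phosphate is ample, SPX proteins hold PHR transcription factors away from the promoters of starvation genes, and when it is scarce the PHR factors are released and raise phosphate transporters, phosphatases and most SPX genes themselves. PHO1 proteins carry an SPX domain in front of a membrane part that exports phosphate, for instance into the xylem of the root.

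Each array gave a signal, a brightness in arbitrary linear units, for every probe set, and a log2 difference here is the mutant mean minus the wild-type mean of log2(signal + 16). A probe set was called changed at a Benjamini-Hochberg adjusted p under 0.05 in limma, fitted on 38172 probe sets that passed a filter on low signal. Of these, 7244 (19.0%) were called, 8.78% higher and 10.2% lower in the mutant, and the median log2 difference of all of them was -0.01. Counting each of 16487 tested genes by its brightest probe set, 26.2% were called, 12.8% higher and 13.4% lower. In 56.7% of tested probe sets the arrays of the genotypes did not overlap. Across these probe sets, log2 signals correlated at r = 0.977 between the mutant arrays and at 0.980 between the wild-type arrays. Between a mutant and a wild-type array r was 0.963 to 0.964.

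Of 64 probe sets for reporter sequences, RPTR-Os-K01193-1_at gave 10386 and 9989 in the mutant arrays and 245.6 and 287.2 in the wild-type arrays. The next brightest reporter probe set reached 78.5 at most. Apart from this single probe set, several whole-array measures moved with genotype. The array holds 19 rice control probe sets placed along actin, cyclophilin, GAPDH and ubiquitin transcripts, with a second series for actin and for GAPDH, the second GAPDH series being dim (0.9 to 24.4). Their log2 differences were -0.77 to 0.07 at the 5′ end (5 of 6 below 0), -0.55 to -0.18 in the middle (6 of 6) and -0.32 to 0.16 at the 3′ end (2 of 7). The 3′ to 5′ signal ratio of GAPDH, a common gauge of RNA integrity, was 18.4 and 16.2 in the mutant arrays and 9.72 and 9.84 in the wild-type arrays, and that of ubiquitin was 1.32 and 1.27 in the mutant arrays and 1.04 and 1.03 in the wild-type arrays. The ratios of actin (12.2 and 16.6 in the mutant arrays, 16.1 and 8.79 in the wild-type arrays) and cyclophilin (2.92 and 2.38 in the mutant arrays, 2.27 and 2.86 in the wild-type arrays) overlapped. Of the bacterial and phage spike-in controls, added during processing, all 12 poly-A probe sets were lower in the mutant (-1.02 to -0.14) and all 9 hybridisation probe sets higher (0.18 to 0.38). Among 4 measured green shoot genes, 2 rose: OsrbcS, the small Rubisco subunit, by 0.26 (SE 0.07, limma adjusted p = 0.0296) and rca, Rubisco activase, by 0.49 (SE 0.08, limma adjusted p = 0.0024). The OsrbcS call was lost without mutant replicate 1 (0.18, limma adjusted p = 0.0685) and without wild-type replicate 1 or 2 (limma adjusted p = 0.242 and 0.144), with the replicate number as a block (0.0633), without the filter on low signal (0.147) and under quantile normalization, where its log2 difference was 0.10 (limma adjusted p = 0.184). Of 6 tested root genes, the potassium transporter gene HAK1 rose by 1.70 (limma adjusted p = 5.26e-07). The silicon channel gene Lsi1 fell by 0.74 (limma adjusted p = 0.000798), and 4 did not pass. The green shoot and root counts stand beside 12.8% of all tested genes called higher and 13.4% called lower. Summed over their brightest probe sets, the green shoot genes (4 of 5 with a probe set) read 123713 and 108134 in the mutant arrays and 91928 and 95982 in the wild-type arrays, and the root genes (8 of 11) 4390 and 4595 in the mutant arrays and 2840 and 3024 in the wild-type arrays, most of it from HAK1 and Lsi1. The root silicon exporter gene Lsi2 stayed at 0.8 to 2.1 in all 4 arrays. Whether the make-up of the seedlings had a part in the results was not tested. In seedling RNA from unstated organs, less RNA per cell and fewer cells of a type cannot be told apart.

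**Figure D1:**
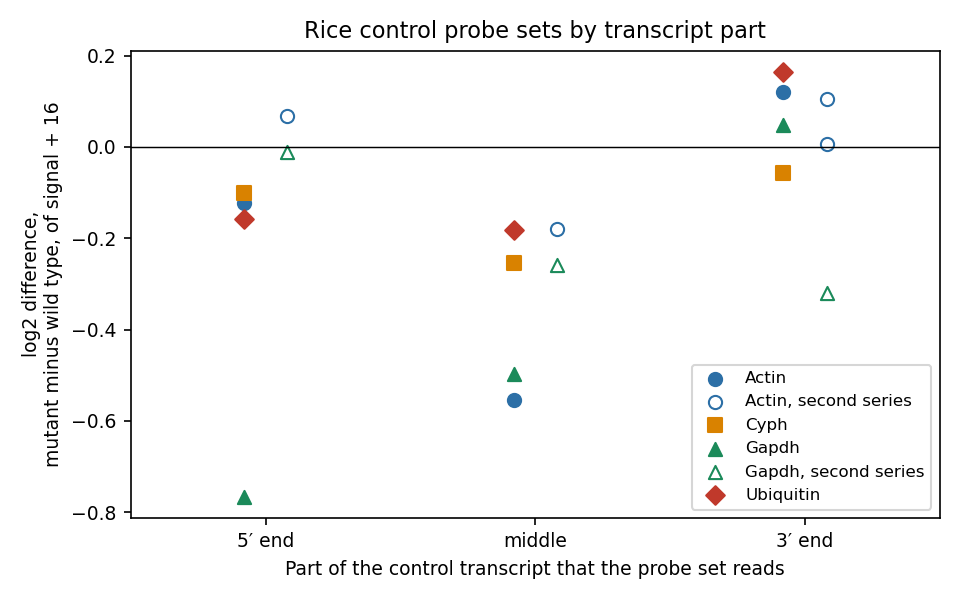
Log2 difference (mutant minus wild type, of signal + 16) of the rice control probe sets for actin, cyclophilin (Cyph), GAPDH and ubiquitin, by the part of the transcript they read; each point is 1 of 19 probe sets, from the means of 2 arrays per genotype, and open points are the second actin and GAPDH series. The 6 middle probe sets lie below 0, the 5′ end runs from -0.77 for GAPDH to 0.07 for the second actin series, and the 3′ end lies between -0.32 and 0.16.

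Of the 9 SPX, PHO1 and PHR genes, counted by their brightest probe set, 3 fell in the mutant, 0 rose and 6 did not pass in limma. The 3 were PHO1-3, SPX1 and SPX4. At an unadjusted p under 0.05, 4 of the 9 were lower and 0 higher, beside 21.4% of all tested genes lower at that level. The 3 of 9 called stand beside 13.4% of all tested genes called lower and 26.2% called in either direction, which with so few members is a description only. The median log2 difference of the 9 was -0.28, against -0.02 over all tested genes. By probe set, 13 of the 14 passed the filter, and 4 of the 13 were called lower and 0 higher, beside 10.2% and 8.78% of all tested probe sets. The arrays of the genotypes did not overlap in 8 of the 13, a share near the 56.7% of all tested probe sets. In 6 of the 13 the mutant arrays were the lower ones without overlap, beside 29.9% of all tested probe sets.

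**Figure D2:**
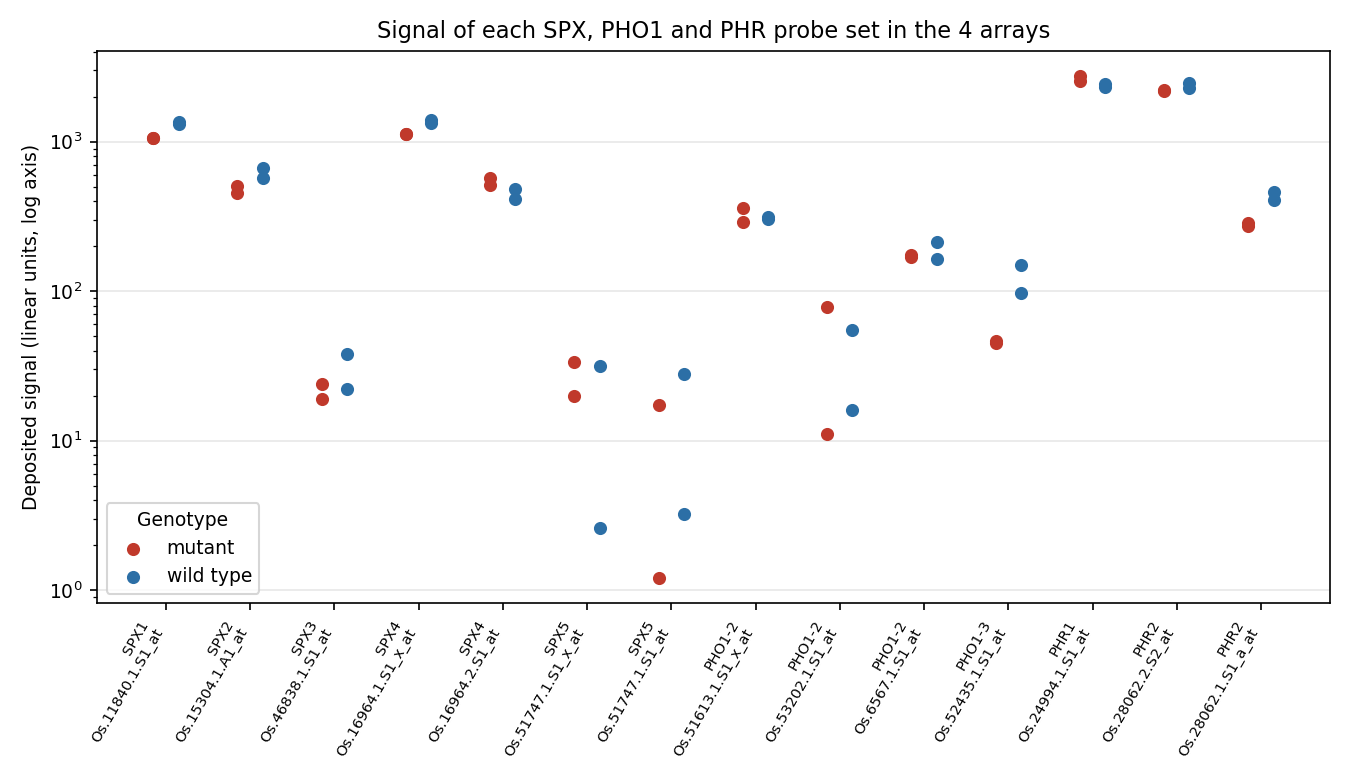
Deposited signal (linear units on a log axis) of each of the 14 SPX, PHO1 and PHR probe sets; red points are the 2 mutant arrays and blue points the 2 wild-type arrays. PHO1-3, SPX1, SPX2, the probe set Os.16964.1.S1_x_at of SPX4 and both PHR2 probe sets lie lower in the mutant arrays without overlap, PHR1 and the other SPX4 probe set lie higher without overlap, and SPX3, SPX5 and PHO1-2 overlap. Levels of different probe sets cannot be compared with each other.

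SPX1 and SPX2 encode nuclear SPX proteins that bind PHR2 in rice when phosphate is ample, and their transcripts are known to rise in phosphate starvation. SPX1 gave signals of 1064 and 1055 in the mutant arrays, against 1349 and 1323 in the wild-type arrays. Both mutant arrays were thus lower than both wild-type arrays, and the replicates of each genotype lay close together. The mean was 1060 ± 5.80 in the mutant and 1336 ± 18.7 in the wild type (SD, n = 2 each), a ratio of 0.793 and a log2 difference of -0.33 (SE 0.08; adjusted p = 0.0204 in limma). This fall lies within the range of the 6 middle control probe sets given above (-0.55 to -0.18). It lies just below that of the 7 at the 3′ end (-0.32 to 0.16). The part of the transcript that the SPX1 probe set reads was not given in the sources used here. Whether RNA integrity had a part in the fall was not tested. The SPX1 call was kept without mutant replicate 1 and was lost without mutant replicate 2 (limma adjusted p = 0.0519), wild-type replicate 1 (0.116) or wild-type replicate 2 (0.0872), with log2 differences between -0.34 and -0.32 in those fits.

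SPX2 gave 455.2 and 501.6 in the mutant arrays and 567.6 and 671.6 in the wild-type arrays. Here too the genotypes did not overlap. The log2 difference of SPX2 was -0.36, with a wider error than that of SPX1 (SE 0.13, interval -0.64 to -0.08, 95%), and it did not pass (limma adjusted p = 0.0775).

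SPX4 encodes a mostly cytoplasmic SPX protein that keeps PHR2 out of the nucleus and is degraded when phosphate runs short; in rice its transcript is not known for a rise in starvation. Its probe sets went opposite ways. The brighter one, Os.16964.1.S1_x_at, gave 1122 and 1129 in the mutant arrays, against 1402 and 1337 in the wild-type arrays, with no overlap. It fell by 0.28 on the log2 scale (SE 0.08, limma adjusted p = 0.0429). As for SPX1, this fall lies within the range of the 6 middle control probe sets (-0.55 to -0.18). It also lies within that of the 7 at the 3′ end (-0.32 to 0.16), where only the dim second GAPDH probe set was as low. Whether RNA integrity had a part in the fall was not tested. The other, Os.16964.2.S1_at, gave 514.2 and 575.3 in the mutant arrays, against 481.2 and 416.4 in the wild-type arrays. Its log2 difference was 0.27 (SE 0.13, limma adjusted p = 0.187), so it was higher in both mutant arrays but did not pass. The gap between the probe sets, -0.55 (SE 0.17), was tested in a limma fit on 4637 pairs of probe sets of the same gene, chosen after the values were seen, in which 9.42% of pairs were called; it did not pass (limma adjusted p = 0.0694) although it had the same sign in all 4 pairs of arrays. Averaged over both probe sets, SPX4 had a log2 difference of 0.00 (SE 0.10). The call of the brighter probe set was also lost whichever of the 4 arrays was left out (limma adjusted p = 0.0885 to 0.228), without the filter on low signal (0.0608), under quantile normalization (0.0586), under a common 75th percentile (0.0696) and with the replicate number as a block (0.0528).

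SPX3 and SPX5 are short SPX proteins that act as further brakes on the starvation response in rice, and both transcripts are known to be induced by phosphate starvation. SPX3 gave 19.0 and 23.9 in the mutant arrays and 37.9 and 22.3 in the wild-type arrays. These are dim signals, close to the level of 14.1 under which probe sets were left out of the test, and the genotypes overlapped. The log2 difference of -0.28 (SE 0.47) had an interval of -1.34 to 0.78, which includes no change as well as a 2-fold fall. SPX5 had a pair of dim probe sets: Os.51747.1.S1_x_at gave 33.6 and 19.8 in the mutant arrays and 31.5 and 2.6 in the wild-type arrays, and Os.51747.1.S1_at gave 1.2 and 17.2 in the mutant arrays and 27.9 and 3.2 in the wild-type arrays. In both, the wild-type arrays differed from each other by more than the genotype means did. The first had a log2 difference of 0.50 (SE 0.59; adjusted p = 0.639 in limma), and the other was left out by the filter.

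**Figure D3:**
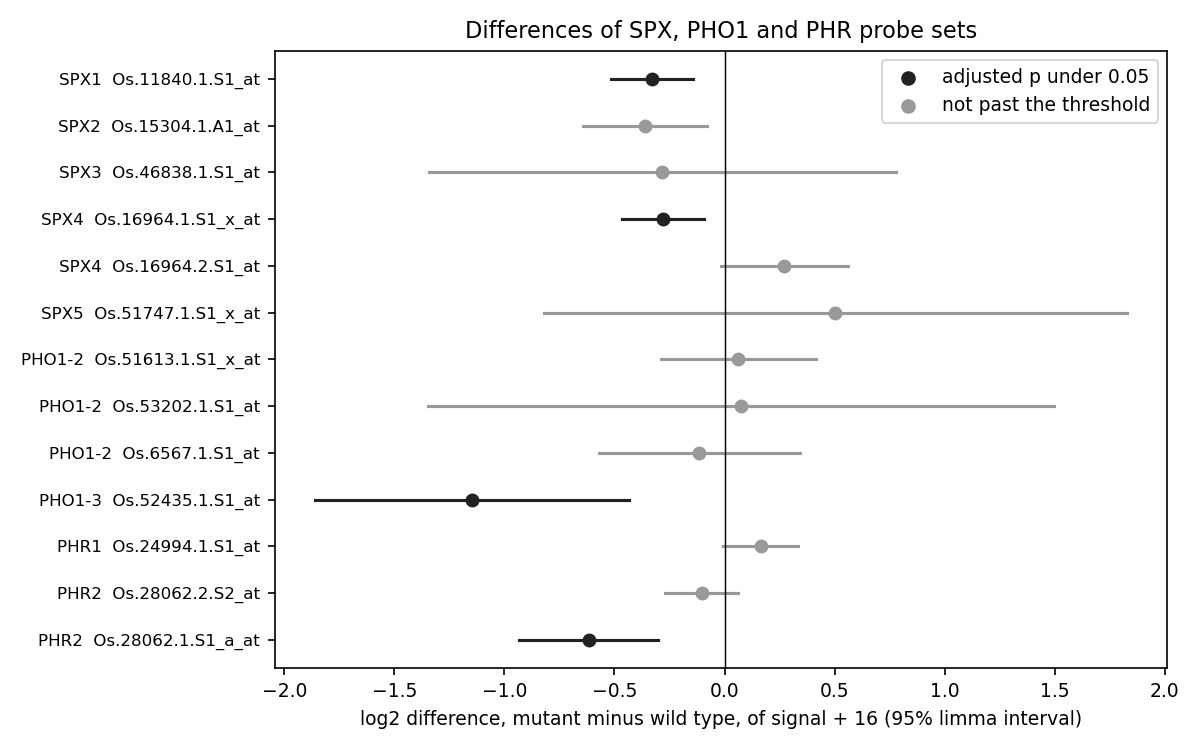
Log2 difference (mutant minus wild type, of signal + 16) with its 95% limma interval for the 13 SPX, PHO1 and PHR probe sets that passed the filter; black marks an adjusted p under 0.05. PHO1-3 lies lowest at -1.15, and the intervals of SPX3, SPX5 and the dim PHO1-2 probe set are the widest.

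PHO1-3 showed the largest difference among the 9 genes. It belongs to the PHO1 family of phosphate exporters. Its signals were 45 and 46.6 in the mutant arrays, against 96.5 and 150.1 in the wild-type arrays. The mutant arrays agreed closely and lay below both wild-type arrays, which were spread. The mean was 45.8 ± 1.13 in the mutant and 123.3 ± 37.9 in the wild type (SD, n = 2 each), a ratio of 0.371. On the log2 scale with 16 added, which understates the change of dim probe sets, PHO1-3 fell by 1.15 (SE 0.32, limma adjusted p = 0.0318). Without wild-type replicate 2, the brighter of its arrays, the log2 difference was -0.86 (limma adjusted p = 0.280). The call was also lost without mutant replicate 1 (-1.13, limma adjusted p = 0.0568), without mutant replicate 2 (-1.16, 0.0507) and without the filter on low signal (0.136), and it was kept without wild-type replicate 1 (-1.43).

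PHO1-2, the main exporter that loads phosphate into the root xylem of rice, had 3 probe sets and none passed. Os.51613.1.S1_x_at gave 361.5 and 288.6 in the mutant arrays and 312.5 and 304.9 in the wild-type arrays, which came to a log2 difference of 0.06 (SE 0.16, interval -0.29 to 0.42). Os.6567.1.S1_at gave 174.0 and 170.1 in the mutant arrays and 213.6 and 164.6 in the wild-type arrays, which came to a log2 difference of -0.11 (SE 0.20, interval -0.57 to 0.34). In both, the genotypes overlapped. The dim Os.53202.1.S1_at ran from 11.0 to 77.8 in the mutant arrays and from 16 to 55.3 in the wild-type arrays, which came to a log2 difference of 0.08 (SE 0.64), and its replicates differed more than its genotypes. Rice makes an antisense transcript from the PHO1-2 locus, and which strand each probe set reads was not given in the sources used here.

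PHR1 and PHR2 encode MYB-type transcription factors that bind starvation promoters, and PHR2 is the best known of them in rice. PHR1 gave 2555 and 2759 in the mutant arrays and 2309 and 2428 in the wild-type arrays. Both mutant arrays were higher, yet the log2 difference of 0.16 (SE 0.08, interval -0.01 to 0.33) did not pass (limma adjusted p = 0.178).

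PHR2 had a bright and a dimmer probe set. The bright one, Os.28062.2.S2_at, gave 2230 and 2198 in the mutant arrays and 2461 and 2302 in the wild-type arrays, which came to a log2 difference of -0.10 (SE 0.07; adjusted p = 0.403 in limma). The dimmer one, Os.28062.1.S1_a_at, gave 271.2 and 284.4 in the mutant arrays, against 462.2 and 407.8 in the wild-type arrays. It fell by 0.62 (SE 0.14, limma adjusted p = 0.0127), a ratio of 0.639, with no overlap. Both probe sets were lower in both mutant arrays, by unlike amounts. The difference between them, 0.51 (SE 0.18), did not pass in the fit on pairs of probe sets (limma adjusted p = 0.107). Without wild-type replicate 1 the fall of the dimmer probe set was -0.53 and no longer passed (limma adjusted p = 0.104). Averaged over both probe sets, PHR2 had a log2 difference of -0.36 (SE 0.09; adjusted p = 0.0289 in limma). The part of the transcript that either probe set reads was not given in the sources used here. Of the 12 middle and 5′ control probe sets, 11 were lower in the mutant, some of them from the dim second GAPDH series. At the 3′ end 2 of 7 were lower. Whether these shifts had a part in the PHR2 values was not tested.

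**Figure D4:**
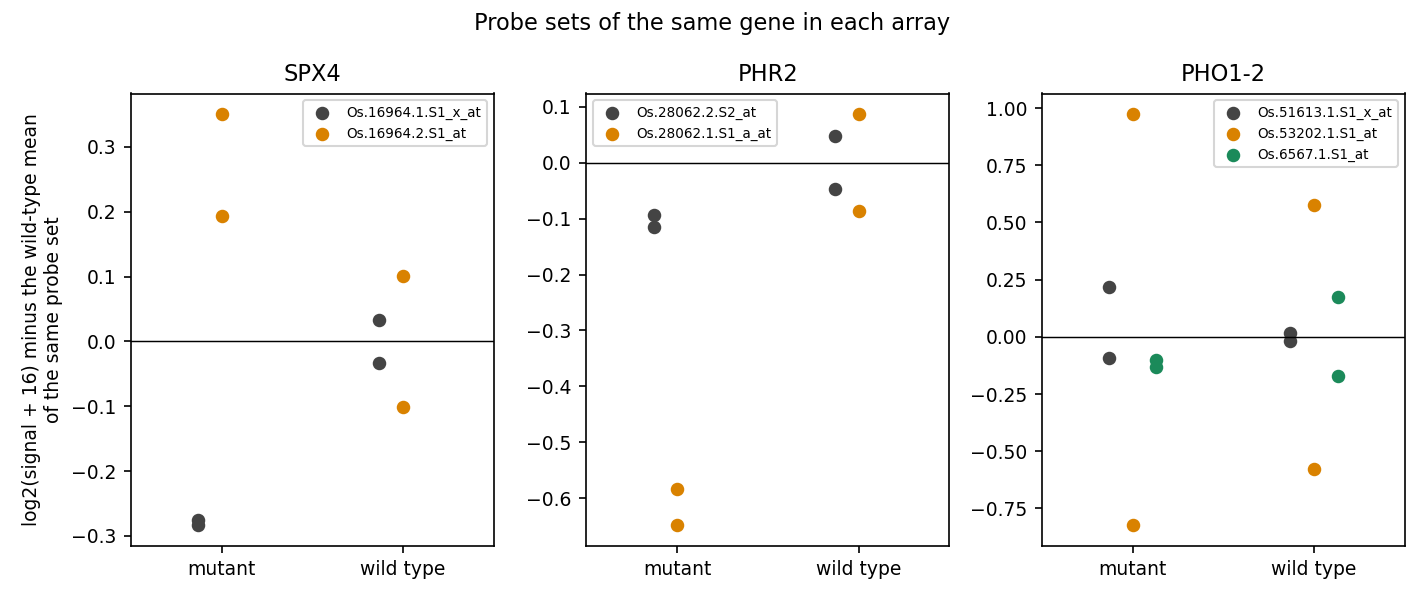
Log2(signal + 16) of each array minus the wild-type mean of the same probe set, for SPX4, PHR2 and PHO1-2; colours mark the probe sets, with mutant arrays on the left and wild-type arrays on the right. The SPX4 probe sets part in opposite directions in the mutant (-0.28 and 0.27), and the PHR2 probe sets are both lower by unlike amounts (-0.10 and -0.62).

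Around these genes, 24 other phosphate genes had a probe set and 23 were tested by their brightest one. Of the 23, 6 rose, 1 fell and 16 did not pass. Their log2 differences had a median of 0.35. Here and in each of the lists below, rises stand beside 12.8% of all tested genes called higher and falls beside 13.4% called lower. Among the PHT1 transporters, which take phosphate up across the plasma membrane, 2 of 8 tested rose, 0 fell and 6 did not pass. PHT1-8 gave 2353 and 3063 in the mutant arrays, against 1540 and 1204 in the wild-type arrays. It rose by 0.97 (SE 0.14, limma adjusted p = 0.000872), and a second bright probe set of it rose by 0.90 (SE 0.08). PHT1-1 gave 7431 and 6621 in the mutant arrays, against 3888 and 4342 in the wild-type arrays, and rose by 0.77 (SE 0.08, limma adjusted p = 0.000139). Both transporters were higher in both mutant arrays, and both calls held whichever of the 4 arrays was left out. A dim second probe set of PHT1-1, left out by the filter, went the other way. It gave 2.7 and 2.9 in the mutant arrays and 46.7 and 16 in the wild-type arrays. PHT1-2, a transporter known for its strong induction by phosphate starvation, was dim and overlapped, with 13.6 and 59.6 in the mutant arrays and 21.9 and 49.9 in the wild-type arrays.

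Enzymes of inositol phosphate synthesis lead to the small molecules that SPX domains bind. Of 8 tested, 3 rose, 0 fell and 5 did not pass. IPK2, an inositol polyphosphate kinase, gave 420.1 and 369.7 in the mutant arrays, against 214.0 and 138.1 in the wild-type arrays, and rose by 1.12 (SE 0.21, limma adjusted p = 0.00402). RINO1, the myo-inositol phosphate synthase that opens the route, gave 2210 and 2228 in the mutant arrays, against 1433 and 1530 in the wild-type arrays, and rose by 0.58 (SE 0.08, limma adjusted p = 0.000635). For both genes the mutant arrays were higher without overlap. ITPK5, of the inositol trisphosphate kinase family, rose by 0.35 (SE 0.10, limma adjusted p = 0.0366), a call that was lost whichever of the 4 arrays was left out (limma adjusted p = 0.0775 to 0.194). IPK1, the kinase that makes phytic acid from its precursor, had a log2 difference of -0.30 (SE 0.09) and did not pass (limma adjusted p = 0.0510).

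Among 4 further regulators, PHR3, a relative of PHR2, gave 1221 and 1330 in the mutant arrays and 937.6 and 961.0 in the wild-type arrays. PHR3 rose by 0.42 (SE 0.09, limma adjusted p = 0.00909), and its call was lost without wild-type replicate 1 (0.40, limma adjusted p = 0.0511). SIZ1, a SUMO ligase tied to the phosphate response, gave 1640 and 1559 in the mutant arrays, against 2170 and 2168 in the wild-type arrays. It fell by 0.44 (SE 0.08, limma adjusted p = 0.00301). This fall too lies within the range of the 6 middle control probe sets (-0.55 to -0.18). Whether RNA integrity had a part in it was not tested. The SIZ1 relative SIZ2 (-0.16) and NIGT1 (0.49), a nitrate-responsive repressor, did not pass. The 3 MGD genes of galactolipid synthesis, a route used in plants to replace phospholipids in starvation, had log2 differences of 0.16 to 0.60, of which 0 passed in limma and 1, that of MGD1, had an unadjusted p under 0.05.

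**Figure D5:**
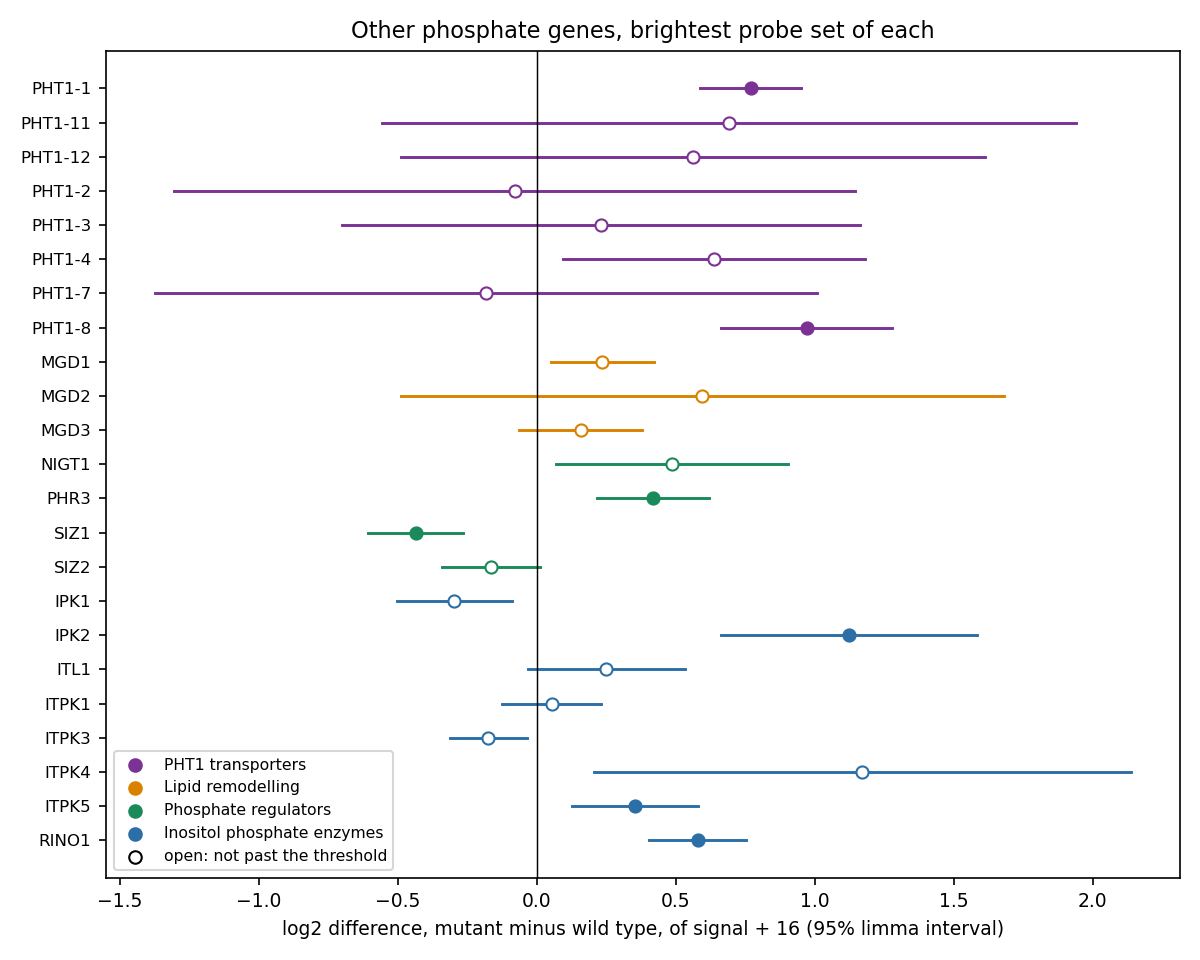
Log2 difference (mutant minus wild type, of signal + 16) with its 95% limma interval for 23 other phosphate genes, by the brightest probe set of each; colours mark the list, and filled points passed an adjusted p of 0.05. PHT1-8, PHT1-1, IPK2, RINO1, PHR3 and ITPK5 lie to the right of 0 and SIZ1 to the left.

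The 5 named genes whose array profile lay nearest to that of PHO1-3, by the root mean square distance of centred log2 values over the 4 arrays among 2904 candidate probe sets, were BHLH004, KIN12C, OsSUS1, PDC2 and IAA9, at distances of 0.10 to 0.14. Over 4 arrays this distance compares little more than the size of the drop and the spread within each genotype. Genes chosen in this way fall by about as much as PHO1-3, so their falls are no separate result. OsSUS1, a sucrose synthase gene, gave 198.2 and 228.2 in the mutant arrays, against 467.0 and 639.6 in the wild-type arrays, and fell by 1.30 (SE 0.17, limma adjusted p = 0.000613). BHLH004, of the bHLH transcription factor family, and IAA9, an Aux/IAA repressor gene, fell by 1.06 and 0.96 (limma adjusted p = 0.0244 and 0.0374). The BHLH004 call was lost without mutant replicate 2 or wild-type replicate 2 (limma adjusted p = 0.0594 and 0.237), and that of IAA9 without mutant replicate 1, wild-type replicate 1 or wild-type replicate 2 (0.0992, 0.0721 and 0.258). PDC2, a pyruvate decarboxylase gene (-0.97), and the kinesin gene KIN12C (-1.33, with signals of 3.3 to 45.6) did not pass. Other probe sets of these genes did not all follow: a brighter one of PDC2 rose by 0.46 (limma adjusted p = 0.0023), a dim one of BHLH004 had a log2 difference of 0.22 and did not pass, and 1 of OsSUS1 fell by 0.76.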

How the data were processed

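Affymetrix rice arrays measured biotin-labelled RNA prepared from 8 µg of total RNA per sample, per the labels' protocols. The authors deposited 1 linear intensity per probe set and array, from GCOS 1.2 according to the submitters' processing notes, and how the software combined probes is not given in the sources used here. Their mean after trimming 2% at each end was 500.1 in all 4 arrays. Detection calls, scanner files and slides were not used here, so neither the background correction nor a slide block could be varied.

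From these, log2(signal + 16) was taken in R 4.3.3, 123 AFFX control probe sets were left out, then the 19086 probe sets with the lowest means. Array medians lay within 0.06, so nothing more was normalized. The genotypes were compared with limma 3.58.1 (eBayes with an intensity trend). The fit was tested on simulated data whose noise followed the mean signal, as the trend assumes. That simulation thus cannot bear on the choice of the trend over a single variance prior. Alternatives are given in the closing section.

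Gene names came from the array's platform annotation and the RefSeq table of assembly ASM3414082v1, a Japonica genome, in which all 17905 genes with a probe set matched. By rule, the text names every SPX, PHO1 and PHR probe set and the called genes of each phosphate list. The same holds for the 5 profiles nearest to the member with the largest difference. Uncalled genes of the lists were named by no fixed rule. Not described above are PHT1-4 (log2 difference 0.64) and ITPK4 (1.17), each at an unadjusted p under 0.05 in limma. The members and lists were chosen with earlier results of these data known. From the lists, 7 matches were left out after their synonyms were seen, such as PT2, which is GRF4. For phosphatases this left no gene, and of the other phosphate transport list 7 genes matched and 0 had a probe set. The replicate numbers 1 and 2 are shared by the genotypes, but deviations of same-numbered arrays correlated at 3.1e-05, so they were not treated as pairs.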

Additional observations from a re-analysis of the deposited data

How the results depend on the processing

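The variance prior mattered most: with a single prior limma called 0 probe sets against 7244, 0 SPX, PHO1 and PHR genes against 3 and 0 other phosphate genes against 7, with 9039, 2 and 9 at an unadjusted p under 0.05. A rule with no p-value, at least 2-fold in all 4 array pairs, was met by 1277 probe sets (3.35%) and 0 genes of both lists. Without the filter 1 SPX, PHO1 or PHR gene passed, with more probe sets to adjust over. With 1 of the 4 arrays left out (the lone array of a genotype then being taken to vary as the other genotype does), there were 4633 to 6536 called probe sets, 0 to 1 SPX, PHO1 and PHR genes and 6 to 7 other phosphate genes. The single gene was SPX1 without mutant replicate 1 and PHO1-3 without wild-type replicate 1, and it was 0 without mutant replicate 2 or wild-type replicate 2, where 4 and 2 had an unadjusted p under 0.05. Without wild-type replicate 1 or 2 the probe set count was 4772 and 4633. With the replicate number as a block, 7661 probe sets, 2 SPX, PHO1 and PHR genes and 9 other phosphate genes passed; the numbers are not known to pair the arrays. Counting a gene by any probe set, an alternative added after seeing the data, gave 4 falls, PHR2 among them. Under a common 75th percentile 52.7% of calls were higher in the mutant, against 46.3%. No called SPX, PHO1 or PHR probe set changed sign under the 13 alternative fits. In each, both mutant arrays lay below both wild-type arrays. Only quantile normalization and the common 75th percentile could thus have changed a sign, so the kept sign says little. Dim probe sets, those of SPX3, SPX5 and 1 of PHO1-2, limit what can be seen.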
